A study of Homo sapiens with 4 samples.

Results

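The genes described here encode the proteins of the mitochondrial ribosome. They were taken as the protein-coding genes whose symbol begins with MRPL or MRPS and a number, together with DAP3 and PTCD3, and 80 of the 60671 listed genes met this rule. By symbol, 49 belonged to the large subunit and 31 to the small subunit, with DAP3 and PTCD3 counted as small. The rule used names only and no measured value.

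Mitochondria carry their own ribosome, which translates the few proteins encoded by the mitochondrial genome, all of them parts of the respiratory chain and the ATP synthase. The ribosomal RNAs come from the mitochondrial genome, while each ribosomal protein is encoded in the nucleus, translated in the cytosol and imported. Some subunits descend from bacterial ribosomal proteins and others are found only in mitochondria, and tumour cells often carry high levels of these transcripts.

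RNA was sequenced from 22RV1 and PC3, 2 human prostate cancer (PCa) lines, each infected with a lentivirus for a short hairpin RNA against DDX52 (shDDX52) or for a non-target control (shCON). DDX52 is a DEAD-box RNA helicase, and the question was what its loss does to the transcripts of these cells. All 4 groups shared the lentiviral vector and puromycin selection of stable transformants, and whether these were clones or pools was not stated. Each condition had 1 library, so no difference below has a replicate check, no test was made and no p-value is given. The deposited unit was TPM, transcripts counted per fixed total after correction for gene length and so a share of the library that holds no read numbers, so counting error cannot be given. "Lower" and "higher" below compare 2 single libraries.

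With shDDX52, DDX52 itself stood at 24.6% of control in 22RV1 (1.2 against 4.88 TPM) and at 22.5% of control in PC3 (2.07 against 9.2 TPM). KLK3, which encodes prostate-specific antigen, was at 6.84 and 4.51 TPM in the 22RV1 libraries, while both PC3 libraries listed it at 0. The libraries differed in content: the mitochondrial genome took 8.10% to 13.0% of all TPM, more with shDDX52 in both lines, and ribosomal RNA took 0.0872% to 3.13%. Nuclear protein-coding genes held 88.4% of TPM in PC3 shCON and 81.3% in PC3 shDDX52, against 85.0% and 83.7% in 22RV1. Because TPM is a share, these contents bear on every value below, and their part in the changes was not tested.

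All 80 genes reached 1 TPM in each of the 4 libraries. Their median was 88.7 TPM (shCON) and 76.4 TPM (shDDX52) in 22RV1, and 100.7 TPM (shCON) and 88.0 TPM (shDDX52) in PC3. Levels spread widely although the proteins are parts of the same particle: the highest gene stood 111 times above the lowest in 22RV1 shCON and 88.6 times in PC3 shCON. The large subunit had the higher median in each library, with 106.5 against 70.2 TPM in 22RV1 shCON and 130.4 against 68.3 TPM in PC3 shCON. Over the 80 genes, control levels in the 2 cell lines were ordered alike (Spearman rho = 0.89 across genes, which are not independent replicates and share the library).

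**Figure D1:**
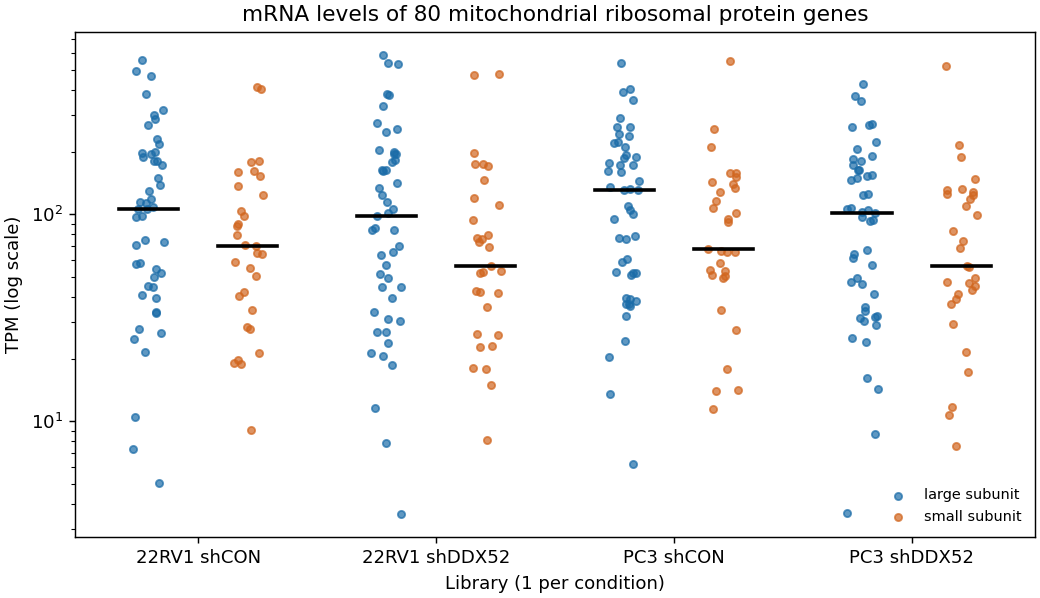
TPM (log scale) of the 49 large and 31 small subunit genes in each of the 4 libraries, 1 point per gene, with the median of each group as a black bar. The large subunit medians lie above the small subunit medians in every library, and the bulk of points in each library spans the same range.

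The 5 genes with the highest mean level included MRPL12, a stalk protein that also binds the mitochondrial RNA polymerase. It stood at 466 TPM in 22RV1 shCON, 533 TPM in 22RV1 shDDX52, 357 TPM in PC3 shCON and 269 TPM in PC3 shDDX52. MRPL20 was at 382, 376, 535 and 428 TPM in the same order of libraries. These genes were therefore among the highest in both lines, but MRPL12 was higher in 22RV1 and MRPL20 in PC3. MRPL24 was at 557, 539, 292 and 264 TPM. MRPL41, which has no bacterial counterpart, was at 493, 587, 265 and 274 TPM. MRPS24, the homolog of bacterial S3 in the head of the small subunit, was at 404, 474, 552 and 521 TPM and was the highest small subunit gene in each PC3 library.

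At the other end of the range, MRPL50 was at 5.02 TPM in 22RV1 shCON, 3.57 TPM in 22RV1 shDDX52, 6.23 TPM in PC3 shCON and 3.61 TPM in PC3 shDDX52. MRPS31 was at 9.05, 8.09, 13.9 and 7.55 TPM. MRPL1, whose bacterial relative forms the mobile L1 stalk, was at 10.5, 11.6, 13.5 and 8.63 TPM. All of these were lower with shDDX52 in PC3, whereas MRPL1 was not lower in 22RV1. MRPL30 was at 7.35, 7.84, 24.4 and 14.3 TPM. MRPS36 was at 19.2, 14.9, 11.5 and 10.7 TPM. MRPS36 carries a ribosomal name but its protein is now known as a component of the 2-oxoglutarate dehydrogenase complex.

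In 22RV1 the change with shDDX52 was small and went both ways. The log2 ratio, log2((TPM shDDX52 + 1)/(TPM shCON + 1)), had a median of −0.13 over the 80 genes, with quartiles of −0.26 and 0.045, against a median of −0.076 over all 14438 genes that reached 1 TPM in a library of this line. Lower values with shDDX52 were seen in 57 of the 80 genes and higher values in 23, where 58.8% of all genes and 58.1% of nuclear protein-coding genes with at least 10 TPM were lower. A value at least 20% lower (a log2 ratio of −0.32 or less, with 1 TPM added to each value) was seen in 12 genes (15.0%), against 22.6% of all genes and 17.1% of the nuclear protein-coding genes. A value at least 25% higher, the same step upward (a log2 ratio of 0.32 or more), was seen in 3 genes, against 12.7% of all genes, and 0 were 2-fold lower, against 2.86%. Of the 6724 nuclear protein-coding genes with at least 10 TPM, 8.48% were at least 25% higher and 46 were 2-fold lower. Counted this way, the genes of the mitochondrial ribosome were past these steps in 15 of 80 cases, and the share for all genes was larger in each direction. After centring on the median of all genes, 5 were at least 20% lower and 7 at least 25% higher.

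In PC3 nearly all of them were lower on the deposited scale. Values with shDDX52 were below shCON for 77 of 80 genes, where 53.5% of all 14262 genes and 58.7% of the nuclear protein-coding genes were lower. The median log2 ratio was −0.28, with quartiles of −0.41 and −0.12, against −0.036 over all genes and −0.074 over nuclear protein-coding genes with at least 10 TPM. At least 20% lower were 33 genes (41.3%), against 22.5% of all genes and 21.0% of the nuclear protein-coding genes. At least 25% higher were 0 genes, where 19.7% of all genes were, and 0 were 2-fold lower, where 3.44% were. Of the 7070 nuclear protein-coding genes with at least 10 TPM, 13.6% were at least 25% higher and 92 were 2-fold lower. The shift was thus broad and shallow, with a range from −0.81 to 0.076. The PC3 shDDX52 library held fewer nuclear protein-coding transcripts, and with TPM recomputed over those genes alone 58 of 80 were lower, beside 40.3% of all genes. The median was then −0.15 beside 0.087 for all genes, with 16 genes at least 20% lower.

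**Figure D2:**
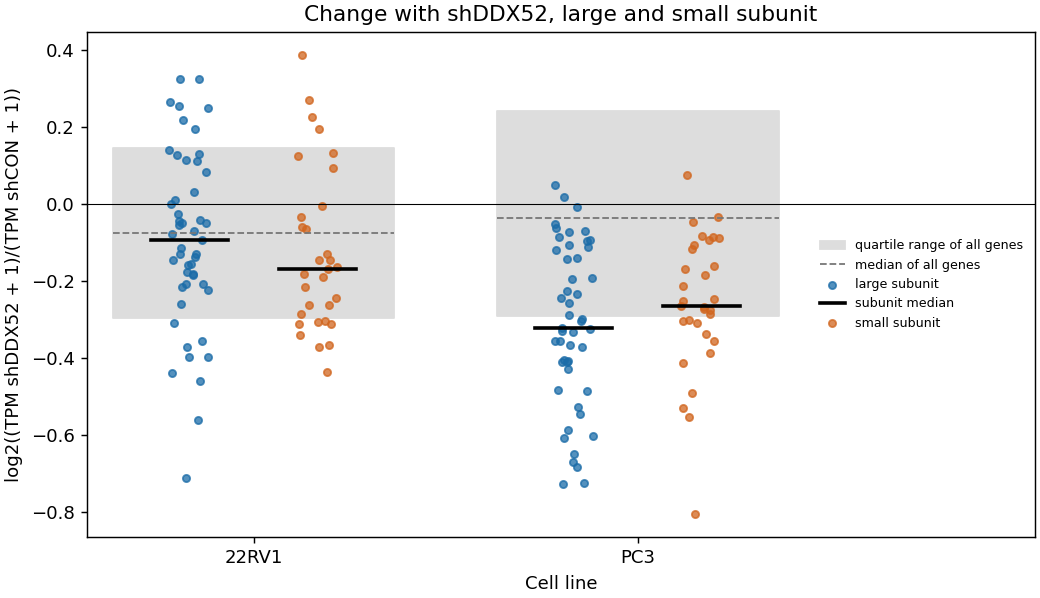
log2 ratio of each gene between shDDX52 and shCON in 22RV1 and in PC3, large and small subunit side by side, with the subunit median as a black bar and the median and quartile range of all genes in grey. In PC3 only 3 of 80 points lie above 0, while in 22RV1 23 points do.

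The summed level of the 80 genes differed between the lines in the same way. In 22RV1 the sum was 10036.5 TPM (shCON) and 10039.7 TPM (shDDX52), a difference of 0.0324%, although most of the genes were lower. The genes that were higher added 617.9 TPM and those that were lower took away 614.6 TPM, and 5 genes alone added 352.4 TPM. In PC3 the sum fell by 15.5%, from 10270.0 TPM (shCON) to 8681.4 TPM (shDDX52). All nuclear protein-coding genes together also fell in PC3, from 88.4% to 81.3% of TPM, beside 85.0% and 83.7% in 22RV1. The part of this in the sums was not tested. Large subunit genes summed to 7023.2 and 5857.1 TPM in PC3, and small subunit genes to 3246.8 and 2824.3 TPM.

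Large and small subunit genes were set side by side in each line. In 22RV1 the large subunit had a median log2 ratio of −0.093 and the small subunit −0.17, a difference of 0.077. There, 33 of 49 large subunit genes and 24 of 31 small subunit genes were lower. In PC3 the medians were −0.32 for the large and −0.26 for the small subunit, a difference of −0.058. At least 20% lower in PC3 were 25 of the 49 large (51.0%) and 8 of the 31 small subunit genes (25.8%), beside 22.5% of all genes. The large subunit median of −0.3223 lay at this step itself (−0.3219), so these counts overstate the gap between the medians. Lower at all were 47 and 30, beside 53.5% of all genes. Single genes spread within each subunit with an SD over genes of 0.23 (large) and 0.21 (small) in 22RV1 and of 0.21 and 0.18 in PC3. Placing MRPS18A and MRPS30 in the large subunit, where their proteins sit, and leaving out MRPS36 gave 0.074 and −0.039. Centred on genes of like GC content and length, a step chosen after seeing the data, the difference was −0.0086 in 22RV1 and −0.056 in PC3, so the sign in 22RV1 is not settled.

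Both lines together had 55 of the 80 genes lower with shDDX52, where 32.5% of the 12175 genes that passed this filter in each line were. These were 32 of 49 large and 23 of 31 small subunit genes. At least 20% lower in both lines were 6 genes (7.50%), a share near the 5.22% of all genes, and all 6 carry large subunit symbols. Of these, 1 gene, MRPL32, was past this step after centring on the median of all genes, and 0 were after centring on GC content and length. Higher in both on the deposited scale was 1 gene, MRPL41, where 18.5% of all genes were. Opposite directions were seen in 24 genes, against 48.8% of all genes. Of these, 22 were higher in 22RV1 and lower in PC3, and 2, MRPL10 and MRPS23, the reverse. The log2 ratios in the lines were only weakly related over the 80 genes (Spearman rho = 0.17 across genes), and the PC3 ratio lay below the 22RV1 ratio in 61 of them. These counts depend on the scaling. Lower in both were 42 genes with TPM over nuclear protein-coding genes and 34 after centring on GC content and length. With TPM over nuclear protein-coding genes MRPL41 was not alone above 0 in both lines. MRPL23, for example, was at 0.27 in 22RV1 and 0.12 in PC3.

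**Figure D3:**
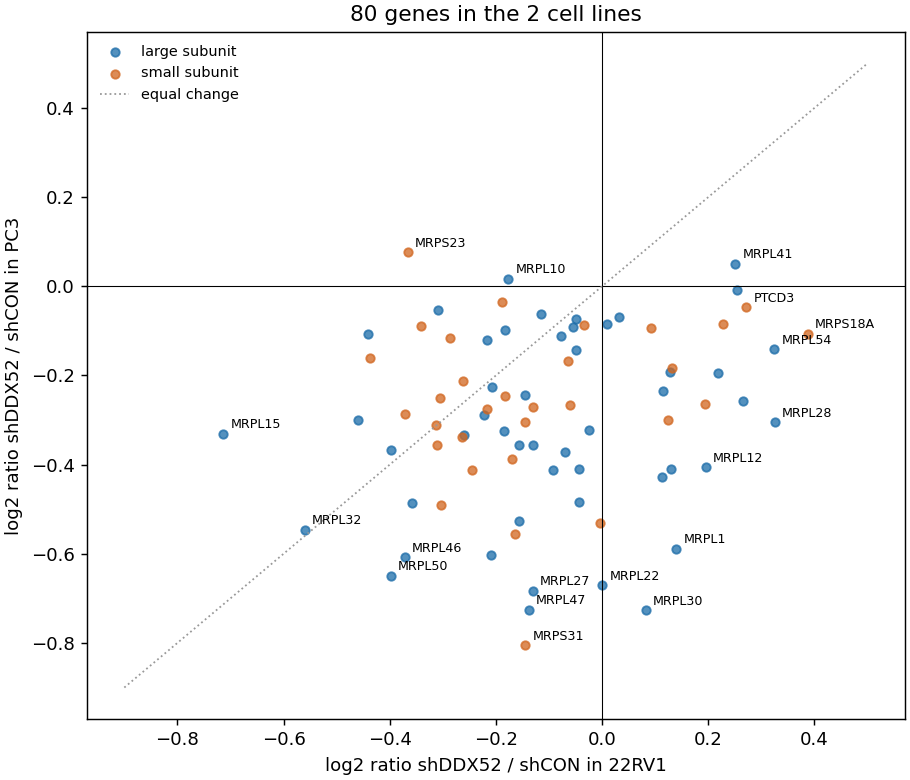
log2 ratio of each of the 80 genes in 22RV1 (x axis) and PC3 (y axis), with large subunit genes in blue and small subunit genes in orange. Most points lie in the lower left field (55 genes) or the lower right field (22 genes), and 61 lie below the dotted line of equal change.

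MRPL32 was the gene furthest down in both lines by the smaller of its changes. Its protein is a large subunit component that must be cut by the m-AAA protease before assembly. MRPL32 went from 73.4 to 49.5 TPM in 22RV1 and in PC3 from 94.4 to 64.4 TPM, log2 ratios of −0.56 and −0.55. The proteasome subunit gene PSMA2 lies on the opposite strand and overlaps MRPL32 by 24 bases in GENCODE 29. PSMA2, looked up after the MRPL32 values were seen, was at 100.5 and 71.1 TPM in 22RV1 and at 130.5 and 88.1 TPM in PC3, log2 ratios of −0.50 and −0.56. Whether reads were counted by strand was not given, so reads in the shared bases cannot be told apart.

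Next came MRPL50 and MRPL46, both found only in mitochondrial ribosomes. MRPL50 had log2 ratios of −0.40 (22RV1) and −0.65 (PC3), at the low levels given above. MRPL46 went from 40.9 to 31.4 TPM in 22RV1 and in PC3 from 39.0 to 25.2 TPM, log2 ratios of −0.37 and −0.61. MRPL46 shares its start region with a small subunit gene, MRPS11, which begins 34 bases away on the other strand of chromosome 15. MRPS11 went from 79.1 to 69.6 TPM in 22RV1 and in PC3 from 65.9 to 55.4 TPM, log2 ratios of −0.18 and −0.25. Both genes of this pair were therefore lower in both lines, MRPL46 by more.

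MRPL45, which lies near the exit of the nascent chain tunnel and helps tie the ribosome to the inner membrane, went from 44.7 to 33.7 TPM in 22RV1 and in PC3 from 39.4 to 30.3 TPM. Its log2 ratios were −0.40 and −0.37. The pseudogene MRPL45P2 was at 6.09 and 5.71 TPM in 22RV1 and at 6.18 and 10.4 TPM in PC3, so reads that could belong to either may have been split. MRPL13 went from 57.5 to 44.7 TPM in 22RV1 and in PC3 from 130.4 to 92.8 TPM, log2 ratios of −0.36 and −0.49. MRPL15, the sixth gene at least 20% lower in both lines, went from 44.8 to 26.9 TPM in 22RV1 and in PC3 from 20.5 to 16.1 TPM. Its log2 ratio of −0.71 was the lowest of the 80 genes in 22RV1, beside −0.33 in PC3.

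The promoters of MRPL32, MRPL50 and MRPL46 are shown because these genes were furthest down in both lines, and the bases are those before the RefSeq start site on GRCh38.p14, on the strand of the gene. Capitals mark matches on either strand to the 4 motifs searched. Before the RefSeq start site they were found in MRPL32 alone of these 3 genes. The matches were the NRF1 core GCGCATGC and, on the other strand, the YY1 core AAGATGGCG. In GENCODE, MRPL32 starts at chr7:42932200, inside the stretch shown. The NRF1 match therefore lies within that gene and the YY1 match before it. PSMA2, on the opposite strand, overlaps MRPL32. The YY1 match reads AAGATGGCG on the strand of PSMA2. Whether either match belongs to MRPL32 or to PSMA2 was not tested. NRF1 and YY1 are transcription factors known for binding promoters of nuclear genes for mitochondrial proteins. The MRPL32 stretch is chr7:42932126-42932375 on the plus strand, the MRPL50 stretch is chr9:101398619-101398868 on the minus strand, and the MRPL46 stretch is chr15:88467389-88467638 on the minus strand.
MRPL32: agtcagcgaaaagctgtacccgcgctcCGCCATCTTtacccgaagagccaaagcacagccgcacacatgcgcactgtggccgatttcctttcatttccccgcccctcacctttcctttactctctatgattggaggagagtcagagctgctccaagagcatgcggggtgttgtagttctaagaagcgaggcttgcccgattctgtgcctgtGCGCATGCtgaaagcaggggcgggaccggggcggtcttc
MRPL50: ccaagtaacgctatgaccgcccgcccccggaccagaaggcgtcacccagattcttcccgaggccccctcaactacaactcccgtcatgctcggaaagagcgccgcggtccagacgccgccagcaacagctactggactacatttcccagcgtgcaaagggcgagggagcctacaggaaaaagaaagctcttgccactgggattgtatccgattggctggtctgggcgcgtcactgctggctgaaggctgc
MRPL46: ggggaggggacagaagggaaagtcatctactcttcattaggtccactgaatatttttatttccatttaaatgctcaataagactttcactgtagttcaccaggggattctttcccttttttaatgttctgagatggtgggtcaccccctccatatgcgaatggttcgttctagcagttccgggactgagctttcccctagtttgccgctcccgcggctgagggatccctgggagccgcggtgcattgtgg

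Promoter windows of 250 bases before and 50 bases after a start site were at hand for 71 of the 80 genes, and a gene counted once if any of its windows held the motif on either strand. MRPL10, MRPL13, MRPL15, MRPL2, MRPL21, MRPL23, MRPL35, MRPS28 and MRPS36 had none. The YY1 core was in 14 of the 71 genes (19.7%), against 2.14% of all 27305 genes with a window and 3.28% of protein-coding ones. The ETS core CCGGAAG was in 30 (42.3%), against 12.2% of all genes and 16.7% of protein-coding ones. The NRF1 core was in 6 (8.45%), against 3.68% and 4.90%. The E-box CACGTG, which c-Myc binds, was in 9 (12.7%), against 8.77% and 10.9%. The ETS core ends in the letters with which the YY1 core begins, but matches of different motifs shared bases in 0 of these genes. More than 1 kind was held by 10 genes, and 25 held none. A match is a string of letters and not a bound site.

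For genes with and without the YY1 core the median log2 ratios were −0.039 and −0.13 in 22RV1 and −0.30 and −0.28 in PC3. For the E-box the medians were −0.044 and −0.13 in 22RV1 and −0.30 and −0.27 in PC3. With and without the ETS core they were −0.13 and −0.064 in 22RV1 and −0.30 and −0.27 in PC3. With and without the NRF1 core they were −0.016 and −0.13 in 22RV1 and −0.28 and −0.29 in PC3. In PC3, all of these medians lay between −0.30 and −0.27.

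The YY1 core had a set place in many of these genes. In 11 of the 14 it lay on the transcribed strand just after the start site, and in 10 its ATG was a start codon in GENCODE 29. Its place in other genes that hold the core was not counted, so this is not shown to be particular to these genes. Stretches of 25 bases around it, with the core in capitals, show this for genes of both subunits, among them MRPS18A, the highest in 22RV1, and MRPL46 and MRPL50, which were low in both lines. Positions on GRCh38.p14 are chr15:88467364-88467388 on the minus strand for MRPL46, chr9:101398579-101398603 on the minus strand for MRPL50, chr6:43687766-43687790 on the minus strand for MRPS18A, chr6:30617855-30617879 on the plus strand for MRPS18B, chr7:43869482-43869506 on the minus strand for MRPS24, and chr2:86106237-86106261 on the plus strand for PTCD3.
MRPL46: gagaacgaAAGATGGCGgcgcccgt
MRPL50: tctcatcgAAGATGGCGgcgcgatc
MRPS18A: ggtttttgAAGATGGCGgccctcaa
MRPS18B: cgtacgtcAAGATGGCGgcgtctgt
MRPS24: cttggcccAAGATGGCGgcctccgt
PTCD3: agaaatcaAAGATGGCGgttgtatc

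In 22RV1 the lowest ratios after MRPL15 and MRPL32 belonged to both subunits. MRPL48 went from 33.3 to 24.0 TPM, a log2 ratio of −0.46, beside −0.30 in PC3. MRPL49 went from 114.3 to 84.0 TPM, a log2 ratio of −0.44, but from 109.5 to 101.7 TPM in PC3, for a log2 ratio of −0.11. MRPL49 overlaps FAU, an abundant ribosomal protein gene on the opposite strand that was at 2917 and 3298 TPM in 22RV1. MRPS16, a small subunit protein with a bacterial homolog, went from 103.3 to 76.0 TPM in 22RV1 and in PC3 from 211 to 189 TPM, log2 ratios of −0.44 and −0.16. None of these was 20% lower in PC3, where MRPL48 came nearest.

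The highest ratios in 22RV1 were those of MRPS18A, MRPL28, MRPL54, PTCD3 and MRPL17. MRPS18A went from 71.1 to 93.4 TPM in 22RV1 and in PC3 from 127.6 to 118.4 TPM, log2 ratios of 0.39 and −0.11. MRPL28 went from 199 to 250 TPM in 22RV1 and in PC3 from 131.4 to 106.2 TPM, log2 ratios of 0.33 and −0.30. MRPL54 went from 113.4 to 142.3 TPM in 22RV1 and in PC3 from 52.0 to 47.0 TPM, log2 ratios of 0.32 and −0.14. These were the genes at least 25% higher in 22RV1, and each of the 3 was lower in PC3 on the deposited scale. PTCD3, a pentatricopeptide repeat protein at the mRNA entry of the small subunit, went from 21.4 to 26.1 TPM in 22RV1, a log2 ratio of 0.27, and from 17.9 to 17.3 TPM in PC3, a ratio of −0.047. MRPL17 went from 54.5 to 65.7 TPM in 22RV1, a log2 ratio of 0.27, and from 59.1 to 49.3 TPM in PC3, a ratio of −0.26.

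In PC3 the lowest ratio was that of MRPS31, which went from 13.9 to 7.55 TPM, a log2 ratio of −0.81, beside −0.14 in 22RV1. Its pseudogene MRPS31P4 went the other way, from 2.01 to 3.98 TPM in PC3 and from 3.5 to 5.5 TPM in 22RV1, and MRPS31P5 went from 0.94 to 1.36 TPM in PC3. The MRPS31 value is therefore uncertain, since the split of reads between the copies is unknown. MRPL30 followed with a log2 ratio of −0.73, from 24.4 to 14.3 TPM. MRPL47 also had −0.73, from 76.4 to 45.8 TPM, with 33.7 and 30.6 TPM in 22RV1. MRPL27, whose bacterial homolog reaches into the peptidyl transferase centre, went from 172.4 to 107.0 TPM, a log2 ratio of −0.68, with 107.9 and 98.4 TPM in 22RV1. MRPL22, which lines the exit tunnel, went from 50.8 to 31.6 TPM, a log2 ratio of −0.67, with 39.6 TPM in both 22RV1 libraries.

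On the deposited scale 3 genes were not lower in PC3, and with TPM over nuclear protein-coding genes 22 were not. MRPS23 was at 94.4 and 99.5 TPM, a log2 ratio of 0.076, and went from 54.9 to 42.4 TPM in 22RV1, a ratio of −0.37. MRPL41, at the levels given above, had 0.051 in PC3 and 0.25 in 22RV1. MRPL10, at the base of the stalk, was at 60.6 and 61.3 TPM in PC3, for a log2 ratio of 0.017, and at 58.4 and 51.5 TPM in 22RV1, a ratio of −0.18. MRPL23 and MRPS7 lay just below 0, and with TPM over nuclear protein-coding genes they were at 0.12 and 0.094. MRPL23, at the tunnel exit, was at 223.4 and 222.3 TPM in PC3, for a log2 ratio of −0.0074, and went from 320.1 to 382 TPM in 22RV1, a ratio of 0.25. MRPS7, in the head of the small subunit, was at 152.1 and 148.5 TPM in PC3, for a log2 ratio of −0.035, and at 137.1 and 120.1 TPM in 22RV1, a ratio of −0.19.

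The stalk and its neighbours did not move as one. MRPL12 had log2 ratios of 0.20 (22RV1) and −0.41 (PC3), and MRPL11 had 0.11 and −0.43, while MRPL10 had −0.18 and 0.017. MRPL11 was at 150.5 and 162.7 TPM in 22RV1 and at 221 and 164 TPM in PC3. MRPL12 and MRPL11 thus shared a direction in each line. MRPL10 was lower in 22RV1, where they were higher, and hardly differed in PC3, where they were lower.

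The MRPS18 genes are 3 paralogs related to 1 bacterial protein, and their products occupy different places, MRPS18A in the large subunit and MRPS18B and MRPS18C in the small. MRPS18B was at 179 and 175 TPM in 22RV1 and at 115.9 and 109.1 TPM in PC3, log2 ratios of −0.034 and −0.086. MRPS18C was at 19.8 and 17.8 TPM in 22RV1 and at 57.8 and 46.7 TPM in PC3, ratios of −0.14 and −0.30. On the deposited scale MRPS18A was the only one of them higher with shDDX52 in either line. With TPM over nuclear protein-coding genes MRPS18A and MRPS18B were at 0.022 and 0.043 in PC3. Centred on the median of all genes, MRPS18B was at 0.042 in 22RV1.

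Other subunits of known role showed mostly lower values. DAP3, a GTP-binding small subunit protein first described in cell death, went from 98.2 to 79.2 TPM in 22RV1 and in PC3 from 157.8 to 132.4 TPM, log2 ratios of −0.31 and −0.25. MRPS12, at the decoding centre, was at 161.1 and 172.0 TPM in 22RV1 and at 133.2 and 124.9 TPM in PC3, ratios of 0.093 and −0.093. MRPL44, which has a fold related to ribonuclease III, was at 28.0 and 27.1 TPM in 22RV1 and at 32.3 and 24.1 TPM in PC3, ratios of −0.043 and −0.41. MRPL58, a peptidyl-tRNA hydrolase that rescues stalled ribosomes, was at 71.3 and 63.9 TPM in 22RV1 and at 159.5 and 124.4 TPM in PC3, ratios of −0.16 and −0.36. MRPS30, a large subunit protein in spite of its symbol, was at 34.4 and 26.4 TPM in 22RV1 and at 50.5 and 41.2 TPM in PC3, ratios of −0.37 and −0.29. MRPS36 had −0.34 and −0.088. On the deposited scale all but MRPS12 were lower in both lines. With TPM over nuclear protein-coding genes MRPS36 was at 0.031 in PC3. Centred on the median of all genes, MRPL44 was at 0.033 in 22RV1.

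Direction in 22RV1 went with GC content and with level. The 23 genes higher with shDDX52 had a median transcript GC content of 58.4% and a median shCON level of 161.1 TPM, and the 57 lower genes had 46.9% and 71.3 TPM. Of the 27 genes with the highest GC content (52.8% to 72.0%), 15 were higher, with a median log2 ratio of 0.033. Of the 27 with the lowest (35.0% to 45.6%), 4 were higher, with a median of −0.17. Across the 80 genes the log2 ratio in 22RV1 had a Spearman rho of 0.53 with GC content and 0.46 with mean level, and GC content and level were themselves related (rho = 0.75).

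Nuclear protein-coding genes as a whole, these 80 included, showed a like relation with GC content in 22RV1. Over 6693 of them with at least 10 TPM the log2 ratio had a Spearman rho of 0.52 with GC content, and 0.13 with level over 6724, and when they were split by GC content into 10 bins the median went from −0.21 in the lowest bin to 0.16 in the highest. After centring each gene on nuclear protein-coding genes of like GC content and transcript length, a step chosen after seeing the data, the median of the 80 genes in 22RV1 was −0.014, with 3 genes at least 20% lower. In PC3 rho with GC content was 0.28 over the 80 genes and 0.023 over 7042 nuclear protein-coding genes. A rank correlation does not show a rise followed by a fall. The median of these genes was −0.19 in the lowest GC bin, 0.012 in the fifth and −0.17 in the highest. Their log2 ratio was also related to transcript length (rho = 0.28). The same centring left a median of −0.16 in PC3, with 57 of 80 lower and 12 genes at least 20% lower.

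**Figure D4:**
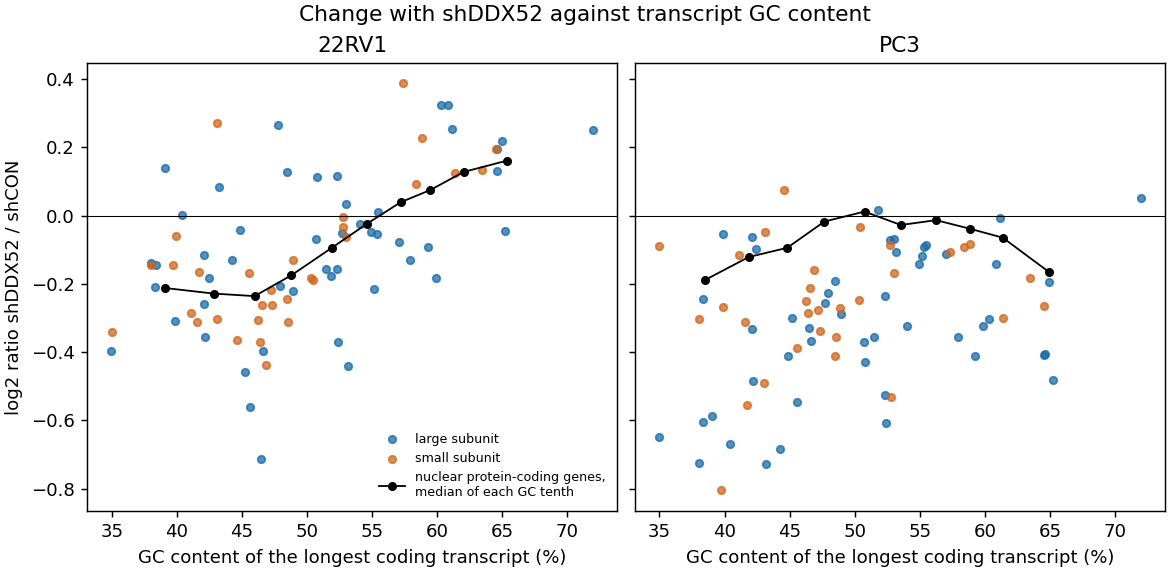
log2 ratio of the 80 genes against the GC content (%) of the longest coding transcript, 22RV1 left and PC3 right, with the median of nuclear protein-coding genes in each of 10 bins of GC content as a black line. In 22RV1 the points climb with the line, from a median of −0.17 for the 27 genes of lowest GC content to 0.033 for the 27 of highest, and in PC3 most points lie below the line.

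Copies elsewhere in the genome were counted because they can take reads. Of the 80 genes, 37 had pseudogenes named after them, 82 in all. Of these pseudogenes 67 were listed at 0 in all libraries and 6 reached 1 TPM in a library. Of the 37 genes with a pseudogene, 32 were lower in 22RV1 (median −0.16), and of the 43 without, 25 were (median −0.069), beside 58.8% of all genes. In PC3 the medians were −0.30 and −0.27, with 37 of 37 and 40 of 43 lower, beside 53.5% of all genes. Whether pseudogenes bear on these counts was not tested. In GENCODE 29, 51 of the 80 genes overlapped another gene, 13 a protein-coding gene on the same strand and 39 a gene on the opposite strand.

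Control cells of the 2 lines were compared as a description of levels, and the 2 tables may have been processed separately. In log2((TPM PC3 shCON + 1)/(TPM 22RV1 shCON + 1)) the median of the 80 genes was 0.051, with 46 higher in PC3 and 34 lower, where 52.3% of 15727 genes were lower. At least 25% higher in PC3 were 32 of the 80 genes, against 36.9% of all genes, and 20 were at least 20% lower, against 40.9%. The large subunit had a median of 0.11 and the small subunit −0.012, a difference of 0.13 that was 0.14 by place in the ribosome. It was 0.46 without genes that have a pseudogene, 0.080 after centring on GC content and length, and 0.069 with CHCHD1, AURKAIP1 and GADD45GIP1 added.

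Subunits with a bacterial homolog were then set beside subunits found only in mitochondria. A protein was put in the second class where the unified ribosomal protein names mark it as mitochondrial, which includes MRPS18A and MRPS18B although they are related to a bacterial protein. Of 46 genes with a bacterial homolog 34 were higher in PC3, with a median of 0.34, and of 33 mitochondria-specific genes 12 were, with a median of −0.067. The difference of 0.41 was the same with MRPS18A and MRPS18B moved to the other class, and lay between 0.31 and 0.46 under the other settings tried. The same order held within the large subunit by place, with 0.34 against −0.041, and within the small subunit, with 0.24 against −0.28. Bacterial homologs summed to 6072.5 TPM in 22RV1 shCON and 6946.7 TPM in PC3 shCON, and mitochondria-specific subunits to 3944.8 and 3311.9 TPM. With shDDX52 the classes were close to each other, with medians of −0.12 and −0.16 in 22RV1 and −0.30 and −0.26 in PC3. These differences were not tested.

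**Figure D5:**
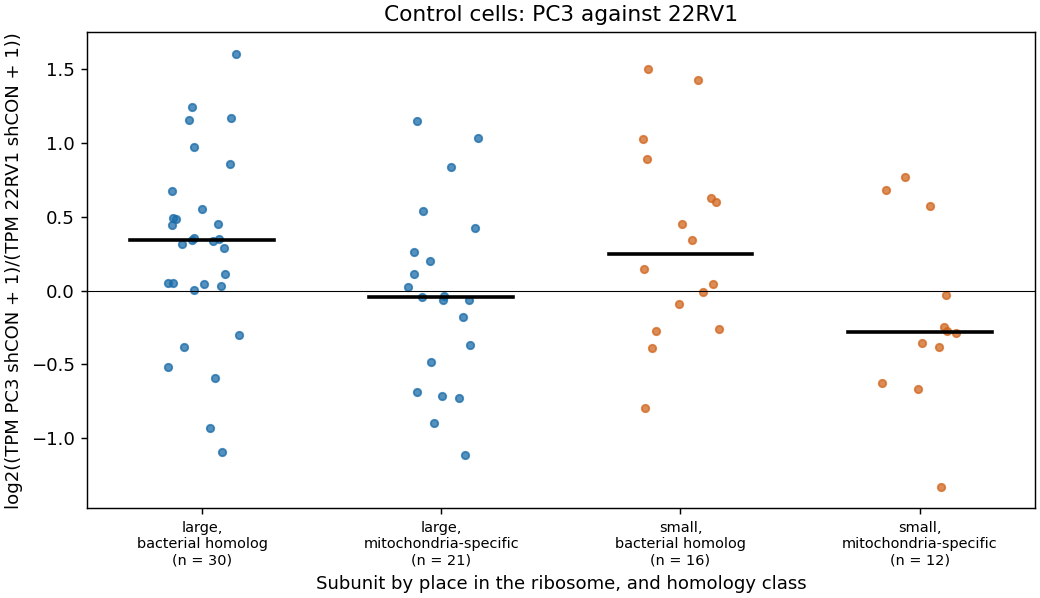
log2 ratio of PC3 shCON over 22RV1 shCON for each gene, by place in the ribosome and homology class, with medians as black bars. Medians are 0.34 and 0.24 for bacterial homologs of the large and small subunit and −0.041 and −0.28 for mitochondria-specific proteins.

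The genes highest in PC3 relative to 22RV1 were MRPL30 at 24.4 against 7.35 TPM, MRPS18C at 57.8 against 19.8 TPM, MRPS6 at 158.6 against 58.5 TPM, MRPL19 at 52.6 against 21.7 TPM and MRPL13 at 130.4 against 57.5 TPM. All 5 have a bacterial homolog. With shDDX52, MRPS6 had log2 ratios of −0.13 (22RV1) and −0.27 (PC3), and MRPL19 had −0.21 and −0.60. The genes highest in 22RV1 relative to PC3 were MRPS27 at 88.1 against 34.5 TPM, MRPL54 at 113.4 against 52.0 TPM, MRPL15 at 44.8 against 20.5 TPM, MRPL24 at 557 against 292 TPM and MRPL41 at 493 against 265 TPM. MRPS27, a pentatricopeptide repeat protein, had log2 ratios of −0.26 (22RV1) and −0.21 (PC3) with shDDX52, and MRPL24 had −0.049 and −0.14. MRPL15 was also the gene furthest down in 22RV1.

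A few subunits lie outside the symbol rule. CHCHD1 was at 63.0 and 53.8 TPM in 22RV1 and at 228 and 170 TPM in PC3, log2 ratios of −0.22 and −0.42. AURKAIP1 was at 524 and 580 TPM in 22RV1 and at 705 and 623 TPM in PC3, ratios of 0.15 and −0.18. GADD45GIP1 was at 95.4 and 122.9 TPM in 22RV1 and at 249 and 173 TPM in PC3, ratios of 0.36 and −0.53. As with the 80 genes, 3 of 3 were lower in PC3 and both directions occurred in 22RV1.

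Of 31 genes for ribosome assembly and modification of mitochondrial ribosomal RNA, 17 (54.8%) were lower in 22RV1 (median −0.024), near the 58.8% of all genes, and 23 (74.2%) in PC3 (median −0.23), where 53.5% of all genes were. At least 20% lower were 4 and 9 of the 31, against 22.6% and 22.5% of all genes, and at least 25% higher 1 and 1. In 22RV1 the lowest were RMND1 (7.66 to 5.39 TPM), the ribosomal RNA methyltransferase NSUN4 (13.4 to 9.96 TPM) and the RNA-binding protein GRSF1 (48.3 to 36.7 TPM), at −0.44, −0.40 and −0.39. The highest were the GTPase GTPBP10 (5.31 to 6.92 TPM) and the methyltransferases MRM2 (49.1 to 59.0 TPM) and MRM1 (12.9 to 15.3 TPM), at 0.33, 0.26 and 0.24. In PC3 the lowest were the pseudouridine synthase TRUB2 (27.0 to 16.9 TPM), GTPBP10 (12.7 to 8.02 TPM) and MTERF4 (9.19 to 5.89 TPM), at −0.65, −0.61 and −0.56. The highest were NSUN4 (7.51 to 10.5 TPM), TRMT2B (10.3 to 12.7 TPM) and METTL17 (24.5 to 27.8 TPM), at 0.44, 0.28 and 0.18. NSUN4 and GTPBP10 thus took opposite places in the 2 lines.

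Of 17 genes for mitochondrial translation factors and mRNA stability, 16 passed the filter in 22RV1, where 13 (81.3%) were lower (median −0.15) beside 58.8% of all genes, and 15 of 17 (88.2%) were lower in PC3 (median −0.13) beside 53.5%. At least 20% lower were 2 (12.5%) and 4 (23.5%), against 22.6% and 22.5% of all genes, and 0 were 25% higher in either line. In 22RV1 the lowest were the ribosome recycling factor MRRF (53.3 to 36.9 TPM), the initiation factor MTIF3 (18.5 to 14.1 TPM) and the membrane insertase OXA1L (116.1 to 95.2 TPM), at −0.52, −0.36 and −0.28. The highest were the elongation factor GFM1 (21.7 to 26.4 TPM), TACO1 (63.1 to 73.2 TPM) and the elongation factor TUFM (547 to 579 TPM), at 0.27, 0.21 and 0.080. In PC3 MTRES1, a protein of stalled ribosome rescue, went from 29.9 to 12.9 TPM, a log2 ratio of −1.15, and was the one gene of these lists past 2-fold. GUF1 (10.4 to 6.61 TPM) and the mRNA-stabilising protein SLIRP (461 to 327 TPM) followed at −0.58 and −0.49. The highest in PC3 were GFM1 (17.7 to 18.0 TPM), GFM2 (13.7 to 13.8 TPM) and MTFMT (9.41 to 9.25 TPM), at 0.025, 0.0069 and −0.022.

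The mRNAs of the mitochondrial genome, which these ribosomes translate, mostly went the other way. In 22RV1 13 of 13 were higher with shDDX52, with a median log2 ratio of 0.43, where 5911 of all 14438 genes were higher. In PC3 10 of 13 were, with a median of 0.16, where 6610 of all 14262 genes were. The PC3 values ran from −0.55 (MT-CO3) to 1.62 (MT-ND4L). TPM is a share, so a larger mitochondrial part leaves less for nuclear genes, and how much of the contrast this makes was not tested. Of the ribosomal RNAs built into the particle, MT-RNR1 of the small subunit was at 1060 and 937 TPM in 22RV1 and at 850 and 1009 TPM in PC3, log2 ratios of −0.18 and 0.25. MT-RNR2 of the large subunit was at 2604 and 3545 TPM in 22RV1 and at 3371 and 4453 TPM in PC3, ratios of 0.44 and 0.40.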

How the data were processed

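Total RNA of the 22RV1 and PC3 lines with either shRNA gave 1 library per condition. Reads were mapped by the authors with a cloud service of the sequencing provider, and TPM values per Ensembl gene were deposited. The submitters' processing notes name CASAVA, HISAT2 and hg19 without their roles. The quantification program, the annotation and the strand setting are not given in the sources used here.

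Of 60671 identifiers, 42020 were paired with a symbol and 58453 were found in GENCODE 29 on GRCh38, which gave gene types, overlaps and the length and GC content of the longest coding transcript. Promoter windows came from RefSeq on GRCh38.p14. Coordinates refer to these sources and not to the build of the deposited values.

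The log2 ratio had a pseudocount of 1 TPM, and a gene entered if it reached 1 TPM in one of the libraries compared. Steps of 25% up or 20% down, which are equal on the log2 scale, and of 2-fold were counted. With TPM, the depth per sample and the precision of single values are unknown. Other lists held subunits without an MRP symbol, assembly and ribosomal RNA modification genes, and translation and mRNA stability genes. Genes were named by rule: the 5 lowest and 5 highest ratios in each line, the 5 furthest down or up in both lines, the 5 largest differences between the lines, the 5 highest and lowest levels, the 5 largest differences between control cells in each direction, 14 genes for their role, and the 3 lowest and 3 highest of each other list. MRPL41 alone was higher in both lines on the deposited scale. PSMA2, MRPS11, FAU, KLK3, MRPL45P2, MRPS31P4, MRPS31P5, MT-RNR1 and MT-RNR2 fall outside the rule and were added with values seen. The members and lists were chosen with earlier results of these data known. Other settings were tried for scaling, centring, filter, pseudocount, pseudogenes and subunit assignment. The computation was tested on simulated data. Python 3.11.15, numpy 2.4.6, pandas 2.3.3, scipy 1.17.1 and matplotlib 3.10.9 were used.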

Additional observations from a re-analysis of the deposited data

Results flagged for a closer look

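The changes with shDDX52 in PC3 and 22RV1 had opposite signs for 24 of the 80 genes, a smaller share than the 48.8% of all 12175 genes compared. These differences were not tested. The 5 with the largest differences are given here. The PC3 log2 ratio minus the 22RV1 log2 ratio was −0.81 for MRPL30, −0.73 for MRPL1, −0.67 for MRPL22, −0.63 for MRPL28 and −0.60 for MRPL12. Each of these was above shCON in 22RV1 and below it in PC3, MRPL22 by only 0.0007 in 22RV1. For the summed TPM of the 80 genes the same difference was −0.24.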

How the results depend on the processing

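No paired analysis was possible because the groups compared share only replicate number 1, and the lines were not taken as replicates of each other. Of 141 recomputed summary values 28 moved, by over 1.5 times or to the other sign, and 0 medians with shDDX52 changed sign. Dropping the filter could move none, since all 80 genes pass it, and centring on 1 value could not move a difference of medians. The causes were not tested. With TPM over nuclear protein-coding genes, the PC3 median was −0.15 and 16 genes were at least 20% lower. With mitochondrially encoded genes and the 20 highest genes left out, the 22RV1 median was −0.073, with 7 genes at least 20% lower and 5 at least 25% higher, and 3 at least 20% lower in both lines. Centred on the median of all genes, these were −0.059, 5, 7 and 1. Centred on GC content and length, chosen after seeing the data, the medians were −0.014 in 22RV1 and −0.16 in PC3, with 3 and 12 genes at least 20% lower and 34 lower and 0 at least 20% lower in both lines. The large minus small difference was then −0.0086 in 22RV1, which turned its sign, and 0.080 between control cells. Leaving out genes with a pseudogene, which leaves 43, the 22RV1 median was −0.069 with 25 lower and 4 at least 20% lower, PC3 had 40 lower and 17 at least 20% lower, and 23 were lower and 2 at least 20% lower in both. The large minus small difference was then 0.046 in 22RV1 and 0.46 between control cells, and with CHCHD1, AURKAIP1 and GADD45GIP1 added it was 0.069 between control cells. Of 660 recomputed values of named genes, 217 moved and 0 that were past the steps of 20% down or 25% up changed sign. Depth is unknown, so counting error could not be set beside any value. The settings for genes at least 20% lower in both lines and for the homology classes were also chosen after seeing the data.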
